A study of Mus musculus with 7 samples.

Results

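The 8 genes described here code for the Kit receptor and for the PI3K and mTOR kinase steps behind it, which drive the growth of the mouse oocyte: Kit, Pdpk1, Akt1, Foxo3, Tsc1, Tsc2, Mtor and Rps6kb1. They were chosen by name from the pathway. For 6 of the 8, the deposited table held a single transcript whose assigned gene was the member on the transcript's own strand. For Tsc2 and Rps6kb1 it held none, and the transcripts for these 2 were found by their position against the GENCODE annotation, a step chosen after the table had been seen. The 8 transcripts stand among 33437 in the table. All 8 passed the filter on low values, at least 1 RPM, the unit of the table (reads scaled to a fixed number of mapped reads), in 3 libraries or more, as did 18179 transcripts in all.

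Single germinal vesicle (GV) oocytes, the large oocytes arrested in the first meiotic prophase, came from 21-day-old females of strain C57BL6 (C57BL/6OlaHsd in the study's methods), 1 oocyte per RNA-seq library. The 4 Setd1b cKO libraries came from females with floxed Setd1b alleles and the Gdf9-Cre transgene, and the 3 Setd1b WT libraries from females with the floxed alleles and no Cre, so by the labels both groups carried the floxed alleles. The study's methods also count as Setd1b WT females that carry Cre and a single recombined allele, a genotype the labels of these 3 libraries do not give. Cre under the Gdf9 promoter acts in oocytes from early folliculogenesis, so the deletion does not reach back before that stage. SETD1B is a histone methyltransferase that places H3K4me3, the mark of active promoters. Which of the oocytes came from the same female is not given in the labels, so p-values measure the spread between single oocytes, which may be technical.

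In the ovary, granulosa cells release Kit ligand, and the KIT receptor on the oocyte answers by activating PI3K. PI3K makes a membrane lipid that recruits PDPK1 and AKT1, and PDPK1 switches AKT on. AKT has a pair of outputs that matter for growth. It drives FOXO3, the transcription factor that holds primordial follicles dormant, out of the nucleus, and it blocks the TSC1 and TSC2 complex, which otherwise keeps the small GTPase RHEB off. Free RHEB activates mTOR complex 1, and mTOR in turn activates the S6 kinase encoded by Rps6kb1, which promotes translation and cell growth. These steps are set by phosphorylation, which mRNA levels do not measure.

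The question asked of the members was whether their mRNA differed between Setd1b cKO and Setd1b WT oocytes. No member passed the test: 0 of 8 passed the threshold of a change over 2-fold at an adjusted p under 0.05 (limma on log2(RPM + 1), Benjamini-Hochberg over all 18179 transcripts), against 5.71% of all transcripts tested (3.76% higher and 1.95% lower in Setd1b cKO). At an unadjusted p under 0.05 the count was also 0 of 8, against 21.7% of all transcripts tested, and voom on the recovered reads called 0 of 8. For 0 of 8 did the 2 genotypes separate without overlap, against 20.3% of all transcripts tested (13.2% with every Setd1b cKO oocyte above and 7.14% with every one below). Their median log2 fold change, Setd1b cKO over Setd1b WT, was -0.22, with 5 below 0 and 3 above 0, and that of all tested transcripts was 0.12. The members' median rested on single oocytes: it was -0.027 without Setd1b cKO replicate 4 (4 below 0 and 4 above), -0.060 without Setd1b WT replicate 2, -0.11 without Setd1b WT replicate 1, -0.36 without Setd1b cKO replicate 2 and -0.43 without Setd1b WT replicate 3. Centring on the median transcript gave -0.37, with 7 below 0, against -0.03 for all. In the wider pathway, Rheb and Pik3r2, which codes for a regulatory subunit of PI3K, rose in Setd1b cKO oocytes and Prkaa2, a catalytic subunit of the energy sensor AMPK, fell. These were 3 of 70 tested genes, or 4.29%, under the 5.71% of all transcripts, and 0 of them passed without Setd1b cKO replicate 2, Setd1b WT replicate 1 or Setd1b WT replicate 2. Reads of Pik3r2 cannot be told apart from those of a transcript on the opposite strand where they overlap.

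Facts of the libraries bear on every value. Mapped reads ran from 8582493 to 12972366, so that 1 read was worth 0.0771 to 0.117 RPM, and counting error alone limits the low genes. Reads outside the listed transcripts took 13.2% to 16.4% of a Setd1b cKO library and 9.57% to 9.90% of a Setd1b WT library, and centring on the median transcript moved the median log2 fold change of all tested transcripts from 0.12 to -0.03. RPM is a share of an oocyte's RNA, so a change in total RNA per oocyte cannot be seen in it. The rows assigned to the 12 oocyte markers had 38.5 RPM or more in every library, and their summed level was 21506 to 22490 RPM in Setd1b cKO and 25980 to 27132 RPM in Setd1b WT. Of the 12, 11 had a log2 fold change below 0 (median -0.44) and 1 was called, the row assigned to Mos (log2 fold change -1.34, adjusted p = 0.00581, limma). Of 16 granulosa markers 15 were in the table, with a summed level of 75.7 to 92.5 RPM in Setd1b cKO and 51.6 to 68.7 RPM in Setd1b WT, and Amh and Foxl2, which define granulosa cells, were at 0.174 RPM or less. Most of the granulosa sum came from Nr5a2 (27.4 to 50.8 RPM) and Cyp19a1 (17.1 to 30.6 RPM). Inha had 7.03, 11.4, 13.2 and 0.583 RPM in Setd1b cKO and 0.810, 4.32 and 0 RPM in Setd1b WT (log2 fold change 1.70, adjusted p = 0.225, limma, and 0.0139 without Setd1b cKO replicate 4 and Setd1b WT replicate 3), and Fshr had 5.15 RPM at most. The 6 theca and stroma markers summed to 6.53 to 8.32 RPM against 1.94 to 3.27 RPM, mostly Dcn, which was higher in Setd1b cKO (log2 fold change 1.45, adjusted p = 0.0248, limma). Of the 6 blood and vessel markers 4 were in the table, with sums of 11.9 to 27.0 RPM against 16.7 to 21.8 RPM and with Lyz2 and Hba-a1 at 0 in every library, and Cd68 among them was higher in Setd1b cKO (log2 fold change 1.36, adjusted p = 0.0435, limma, and 0.0704 by voom), while Pecam1, the other one tested, had -0.57 (adjusted p = 0.369). The rows assigned to Mos, Figla and Bmp15 among the oocyte markers and to Cyp19a1 and Cyp17a1 among the others overlap those genes by less than 0.5 of the union of the spans, so their identity is uncertain. The part of these differences in the values below was not tested. The Setd1b transcript itself, counted over its whole length and found by position, lay at 8.31, 16.7, 12.8 and 2.68 RPM in Setd1b cKO and at 17.7, 16.3 and 8.61 RPM in Setd1b WT (log2 fold change -0.61, SE 0.49, adjusted p = 0.533 by limma), and since reads of the floxed part were not counted apart, it does not check the labels. The table assigns this transcript to Gm26745. Another listed transcript overlaps it, with a mean of 10.5 RPM over the 7 libraries against 11.9 RPM for Setd1b. The part of shared reads in the Setd1b values was not tested.

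Because the SETD1 complex binds DNA through CXXC1, a protein that recognises CG dinucleotides, the start of a gene is shown for 4 cases that the results turn on: Rheb and Prkaa2, which changed, and Mtor and Pdpk1, members that did not pass the test and stand far apart in CG content. Each is the RefSeq promoter window of GRCm38.p6, 250 bases before to 50 after the annotated start, read 5′ to 3′ on the gene's strand, with CG in capitals.
Rheb, chr5:24842312-24842611, minus strand: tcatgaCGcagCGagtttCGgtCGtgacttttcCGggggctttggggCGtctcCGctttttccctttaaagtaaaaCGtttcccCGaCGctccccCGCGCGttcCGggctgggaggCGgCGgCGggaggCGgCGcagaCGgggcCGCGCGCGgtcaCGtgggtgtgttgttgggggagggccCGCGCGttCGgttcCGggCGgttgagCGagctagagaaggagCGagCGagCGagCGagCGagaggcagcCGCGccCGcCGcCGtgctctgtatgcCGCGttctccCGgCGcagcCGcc
Prkaa2, chr4:105109849-105110148, minus strand: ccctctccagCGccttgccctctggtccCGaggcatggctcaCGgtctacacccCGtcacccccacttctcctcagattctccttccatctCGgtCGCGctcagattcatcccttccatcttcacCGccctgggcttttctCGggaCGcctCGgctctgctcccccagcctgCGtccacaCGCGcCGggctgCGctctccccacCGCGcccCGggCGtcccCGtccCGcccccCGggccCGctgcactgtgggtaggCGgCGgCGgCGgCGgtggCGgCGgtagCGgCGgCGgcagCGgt
Mtor, chr4:148448332-148448631, plus strand: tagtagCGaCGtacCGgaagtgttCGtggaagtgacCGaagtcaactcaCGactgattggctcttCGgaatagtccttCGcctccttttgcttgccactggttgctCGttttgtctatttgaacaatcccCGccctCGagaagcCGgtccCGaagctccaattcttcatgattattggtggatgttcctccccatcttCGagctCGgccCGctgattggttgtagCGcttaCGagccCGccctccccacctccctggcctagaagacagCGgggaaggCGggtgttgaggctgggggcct
Pdpk1, chr17:24150873-24151172, minus strand: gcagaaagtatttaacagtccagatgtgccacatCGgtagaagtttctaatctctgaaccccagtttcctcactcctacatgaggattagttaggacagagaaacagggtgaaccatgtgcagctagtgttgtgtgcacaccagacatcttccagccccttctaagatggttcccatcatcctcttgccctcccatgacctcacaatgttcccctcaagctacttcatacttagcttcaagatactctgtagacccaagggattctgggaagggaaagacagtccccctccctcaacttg

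The Rheb window held 47 CG and that of Prkaa2 35. Pik3r2, which also rose, had 36 CG, and Eef2k, described below, had 19. Mtor had 21 CG and Pdpk1 had 1 in the window shown. RefSeq lists 2 promoters for Pdpk1, for Kit and for Akt1 and 3 for Eef2k, and only 1 window was counted for each gene. Across 32851 RefSeq promoter windows of the same length the median was 7 CG, 94.6% held at least 1, and 26.5% held 20 or more. Of the other members, Foxo3 had 35 CG, Tsc2 29, Kit and Tsc1 20 each, Rps6kb1 19 and Akt1 8. The 5′ end of the deposited oocyte transcript lay 2 bases from the RefSeq start for Pdpk1, 8 for Prkaa2 and 39 for Mtor. It lay outside the window for Rheb (490 bases from the start), Kit (521), Pik3r2 (647), Tsc2 (754) and Foxo3 (1625). The RefSeq window therefore need not be the start used in the oocyte. A CG count describes the letters and says nothing of H3K4me3 or of a factor bound there.

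Kit (chr5:75574466-75656741, GRCm38, plus strand), the receptor tyrosine kinase, had 91.9, 103, 85.7 and 75.2 RPM in the 4 Setd1b cKO oocytes and 114, 119 and 82.5 RPM in the 3 Setd1b WT oocytes. The third Setd1b WT oocyte lay below 3 of the 4 Setd1b cKO oocytes, so the groups overlapped. The means were 89.0 ± 11.7 RPM (SD, n = 4) and 105 ± 20 RPM (SD, n = 3), and the log2 fold change was -0.23 (SE 0.22, 95% interval -0.71 to 0.25, adjusted p = 0.601, limma). Kit had the narrowest interval of the 8. Its interval lies inside a 2-fold change in either direction.

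Pdpk1 (chr17:24073680-24150924, minus strand), the kinase that activates AKT, had 33.4, 44.1, 38.6 and 18.4 RPM in Setd1b cKO and 43.2, 51.8 and 32.7 RPM in Setd1b WT. Setd1b cKO replicate 4 was the low oocyte, and the other 3 lay within the Setd1b WT range. Its log2 fold change was -0.37 (SE 0.31, 95% interval -1.06 to 0.31, adjusted p = 0.542, limma), and it was -0.12 without that oocyte.

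Akt1 (chr12:112653821-112674897, minus strand), the kinase that carries the PI3K signal onward, had 12.7, 12.1, 12.6 and 7.69 RPM in Setd1b cKO and 14.7, 16.8 and 12.5 RPM in Setd1b WT. The overlap was narrow: the lowest Setd1b WT oocyte, at 12.5 RPM, lay just under the 2 highest Setd1b cKO oocytes. As a log2 fold change the difference was -0.37 (SE 0.26, 95% interval -0.94 to 0.21, adjusted p = 0.469, limma).

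Foxo3 (chr10:42181830-42278320, minus strand), the brake on follicle activation, had 134, 250, 160 and 84.0 RPM in Setd1b cKO and 202, 225 and 103 RPM in Setd1b WT. The highest and the lowest of the 7 values were both Setd1b cKO oocytes, and the highest was 2.98 times the lowest within that genotype. The log2 fold change was -0.20 (SE 0.38, 95% interval -1.03 to 0.63, adjusted p = 0.821, limma), the widest interval of the 8, and it was 0.065 without Setd1b cKO replicate 4 and 0.014 without Setd1b WT replicate 2, so no direction can be given.

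**Figure D1:**
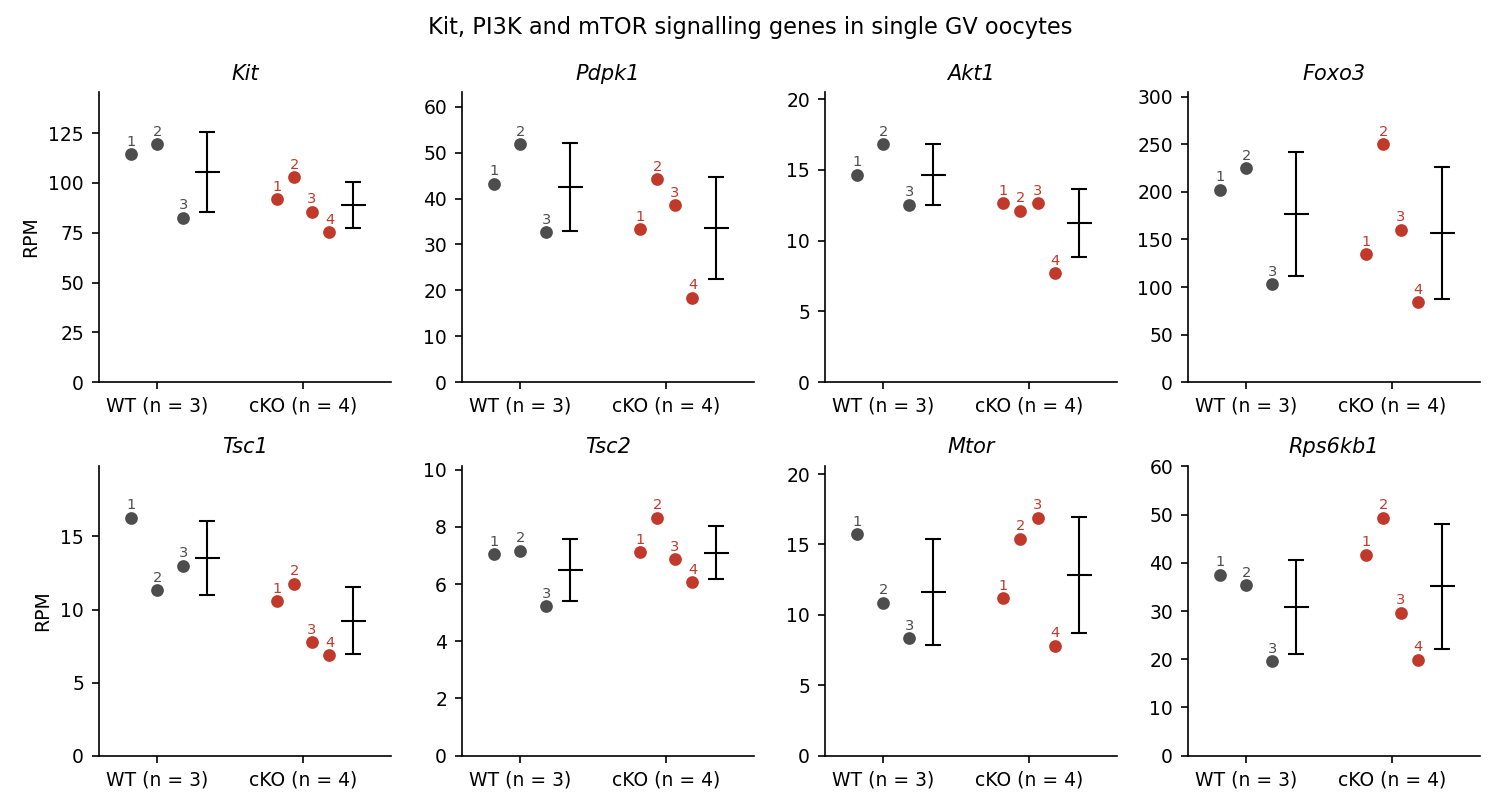
RPM (linear axes from 0) of the 8 genes in each oocyte, Setd1b WT (n = 3, grey) and Setd1b cKO (n = 4, red), with the replicate number at each point and the mean ± SD beside each group. The genotypes overlap in all 8 panels, and Setd1b cKO replicate 4 is the lowest of its genotype in each.

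Tsc1 (chr2:28641000-28691169, plus strand), the partner that stabilises TSC2, had 10.6, 11.8, 7.75 and 6.87 RPM in Setd1b cKO and 16.3, 11.3 and 13.0 RPM in Setd1b WT. Of the 4 Setd1b cKO oocytes 3 lay below all Setd1b WT oocytes, and replicate 2 lay above the lowest of them. The log2 fold change was -0.52 (SE 0.27, 95% interval -1.12 to 0.08, adjusted p = 0.303, limma), the largest difference of the 8, and under the 22 other settings tried its adjusted p came no lower than 0.175.

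Tsc2 (chr17:24595937-24633381, minus strand), which holds the part of the complex that switches RHEB off, had 7.13, 8.32, 6.88 and 6.06 RPM in Setd1b cKO and 7.05, 7.17 and 5.24 RPM in Setd1b WT. The values lay close together in both genotypes. The log2 fold change was 0.12 (SE 0.26, 95% interval -0.45 to 0.68, adjusted p = 0.849, limma). On the log2(RPM + 1) scale the SD was 0.16 in Setd1b cKO and 0.22 in Setd1b WT. Counting error alone gives 0.17 in either genotype at 52 to 101 reads, on log2 reads without the added 1. The scales differ, so these SDs cannot be set directly against it. The table assigned this transcript to Pkd1, its neighbour on the other strand. The row that the table does assign to Tsc2 is a transcript of the opposite strand inside the gene (chr17:24611336-24618302, plus strand), where GENCODE lists no gene on that strand. It had 122, 116, 76.5 and 49.5 RPM in Setd1b cKO and 81.2, 93.3 and 46.4 RPM in Setd1b WT (log2 fold change 0.27, SE 0.35, adjusted p = 0.721, limma). That transcript spans 10.6% of the exonic bases of Tsc2, and the kit does not mark strand, so reads there could not be told apart. The transcript assigned to Nthl1, also on the other strand, overlaps Tsc2 over 700 bases at 39.8 ± 5.26 RPM (SD, n = 4) and 38.2 ± 7.45 RPM (SD, n = 3), above the level of Tsc2 itself.

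Mtor (chr4:148448543-148557683, plus strand), the kinase of both mTOR complexes, had 11.2, 15.4, 16.9 and 7.81 RPM in Setd1b cKO and 15.7, 10.9 and 8.33 RPM in Setd1b WT. High and low oocytes occurred in both genotypes over nearly the same range. Its log2 fold change was 0.12 (SE 0.32, 95% interval -0.59 to 0.83, adjusted p = 0.881, limma), with a sign that turned under centring on the median transcript (-0.038).

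Rps6kb1 (chr11:86496828-86544997, minus strand), the S6 kinase, had 41.7, 49.3, 29.7 and 19.9 RPM in Setd1b cKO and 37.6, 35.4 and 19.6 RPM in Setd1b WT. The lowest oocyte of each genotype had nearly the same level. On the log2 scale the fold change was 0.16 (SE 0.34, 95% interval -0.59 to 0.91, adjusted p = 0.843, limma). The table assigned this transcript to Rnft1, a neighbour on the other strand, whose own transcript overlaps it over 2198 bases at 16.2 ± 5.33 RPM (SD, n = 4) and 19.3 ± 9.70 RPM (SD, n = 3). Tubd1, on the same opposite strand, overlaps it over 108 bases at 45.1 ± 21.0 and 41.0 ± 11.0 RPM (SD, n = 4 and 3).

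Set per kilobase of exonic sequence, which levels between genes require, the mRNA of the transcription factor stood above those of the kinases. Foxo3 had 20.8 ± 9.18 RPM per kilobase in Setd1b cKO (SD, n = 4) and 23.4 ± 8.58 in Setd1b WT (SD, n = 3), and Kit followed at 9.98 ± 1.31 and 11.8 ± 2.24. The ranges of Foxo3 and Kit over the 7 oocytes overlapped, at 11.1 to 33.0 and 8.43 to 13.4 RPM per kilobase. Within each oocyte, however, Foxo3 lay above Kit. The kinases Rps6kb1 (2.26 to 5.70), Pdpk1 (1.68 to 4.74) and Akt1 (1.88 to 4.10 RPM per kilobase) overlapped each other and lay below Kit in every oocyte. Mtor (0.772 to 1.67), Tsc1 (0.581 to 1.38) and Tsc2 (0.545 to 0.865 RPM per kilobase) lay lowest, each overlapping the next, and the order between these 3 groups was the same in both genotypes.

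One oocyte of each genotype was low for nearly all members. Setd1b cKO replicate 4 was the lowest of its genotype for 8 of 8 members, against 37.4% of all tested transcripts, and Setd1b WT replicate 3 for 7 of 8, against 40.4%, with Tsc1 the exception. The median of the members' log2 level in Setd1b cKO replicate 4 minus the mean of the other 3 was -0.71, against -0.06 for all tested transcripts, and for Setd1b WT replicate 3 it was -0.51 against -0.02. Foxo3 had the largest gap in both, -1.05 and -1.04. Most members have long mRNAs, with a median exonic length of 9265.5 bases, though Akt1 has 4098. The median was 3833 for the tested transcripts whose assigned gene lies on their own strand, since the others were given no length. For transcripts of at least 7000 exonic bases the medians were -0.21 and -0.20, and for those under 2000 they were 0.15 and 0.20, so length moved with the gap in both oocytes while the members lay further down than the long transcripts as a class. The part of transcript length and RNA quality in this was not tested.

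Some short mRNAs of the same pathway, picked out after their values were seen, ran the other way in these 2 oocytes. Lamtor5, a subunit of the Ragulator complex that anchors mTOR complex 1 at the lysosome, had 292, 216, 288 and 622 RPM in Setd1b cKO and 204, 214 and 391.8 RPM in Setd1b WT. Lamtor2 had 43.2, 35.9, 66.9 and 97.2 RPM against 35.7, 38.6 and 72.8 RPM, and Lamtor4 had 103, 72.2, 141 and 175 RPM against 74.3, 85.2 and 148 RPM. In each of the 3, Setd1b cKO replicate 4 and Setd1b WT replicate 3 held the highest value of their genotype. Not all short mRNAs of the list did so. Castor1, with 1574 exonic bases, had its lowest value of each genotype in these same oocytes, at 8.04 and 5.43 RPM. Without these 2 oocytes, an alternative chosen after seeing the data, still 0 of 8 members passed the test, with log2 fold changes of -0.32 for Kit, -0.29 for Pdpk1, -0.31 for Akt1, -0.28 for Foxo3, -0.42 for Tsc1, 0.05 for Tsc2, 0.12 for Mtor and 0.11 for Rps6kb1 and adjusted p-values from 0.312 to 0.935 (limma).

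**Figure D2:**
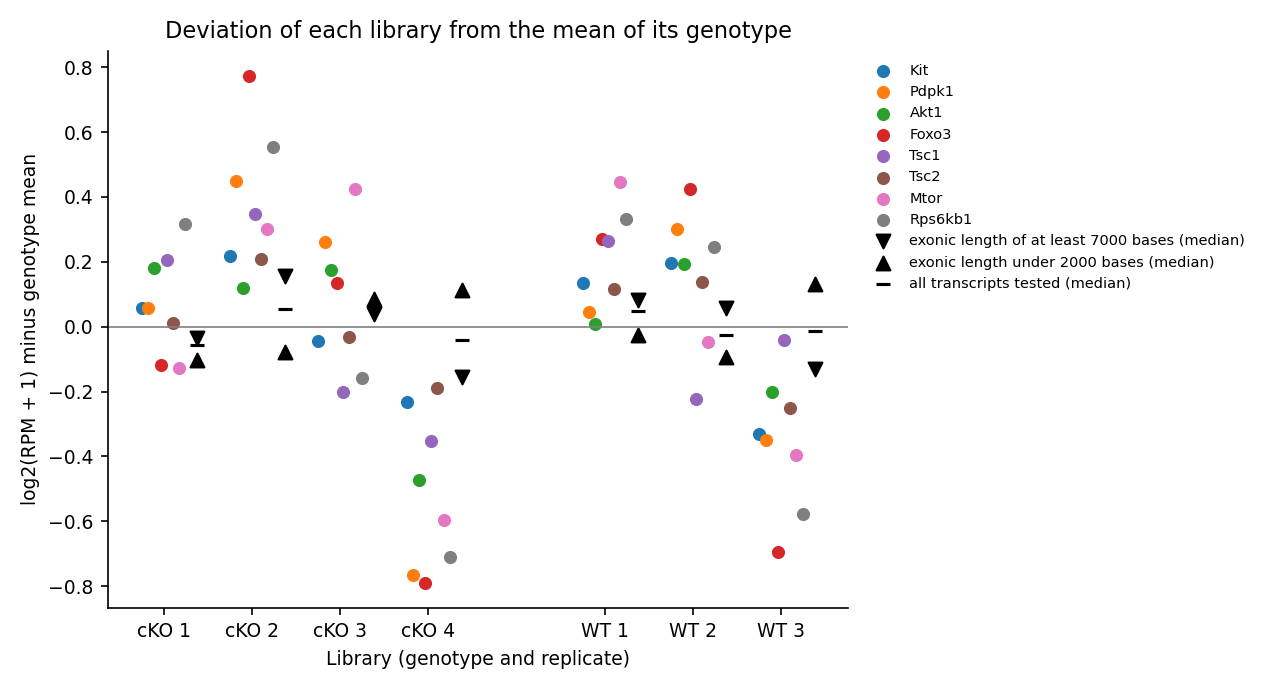
Log2(RPM + 1) of each of the 8 genes in each oocyte minus the mean of its genotype, with the median over all tested transcripts and over those with long and short exonic sequence. All 8 genes lie below 0 in Setd1b cKO replicate 4 and in Setd1b WT replicate 3, where transcripts of at least 7000 bases have a median below 0 and those under 2000 bases one above 0.

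Genes whose pattern over the 7 oocytes was most like a member were found by the root mean square difference of centred log2(RPM + 1) among 6788 transcripts. For Foxo3 the nearest were Brd1 (0.0613), Nf1 (0.102) and Mtmr2 (0.115). Brd1 had 49.3, 84.4, 57.2 and 30.9 RPM in Setd1b cKO and 79.0, 79.1 and 37.0 RPM in Setd1b WT, high and low in the same oocytes as Foxo3. For Kit they were Cobll1 (0.0716), Dhx40 (0.0748) and Stxbp6 (0.0755), and for Mtor they were Bcr (0.0723), Gprc5c (0.0778) and Gtpbp4 (0.105).

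Around the members, a list of 89 genes in 12 roles of the pathway was examined, of which 86 were matched to a transcript and 70 had enough reads to be tested. Of the 70, 2 rose, 1 fell and 67 did not pass the test, or 4.29% called against 5.71% of all tested transcripts. The genotypes did not overlap for 13 of the 70, or 18.6% against 20.3% of all, and the median log2 fold change was 0.12, the same as for all. The list as a whole therefore stood near the background.

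**Figure D3:**
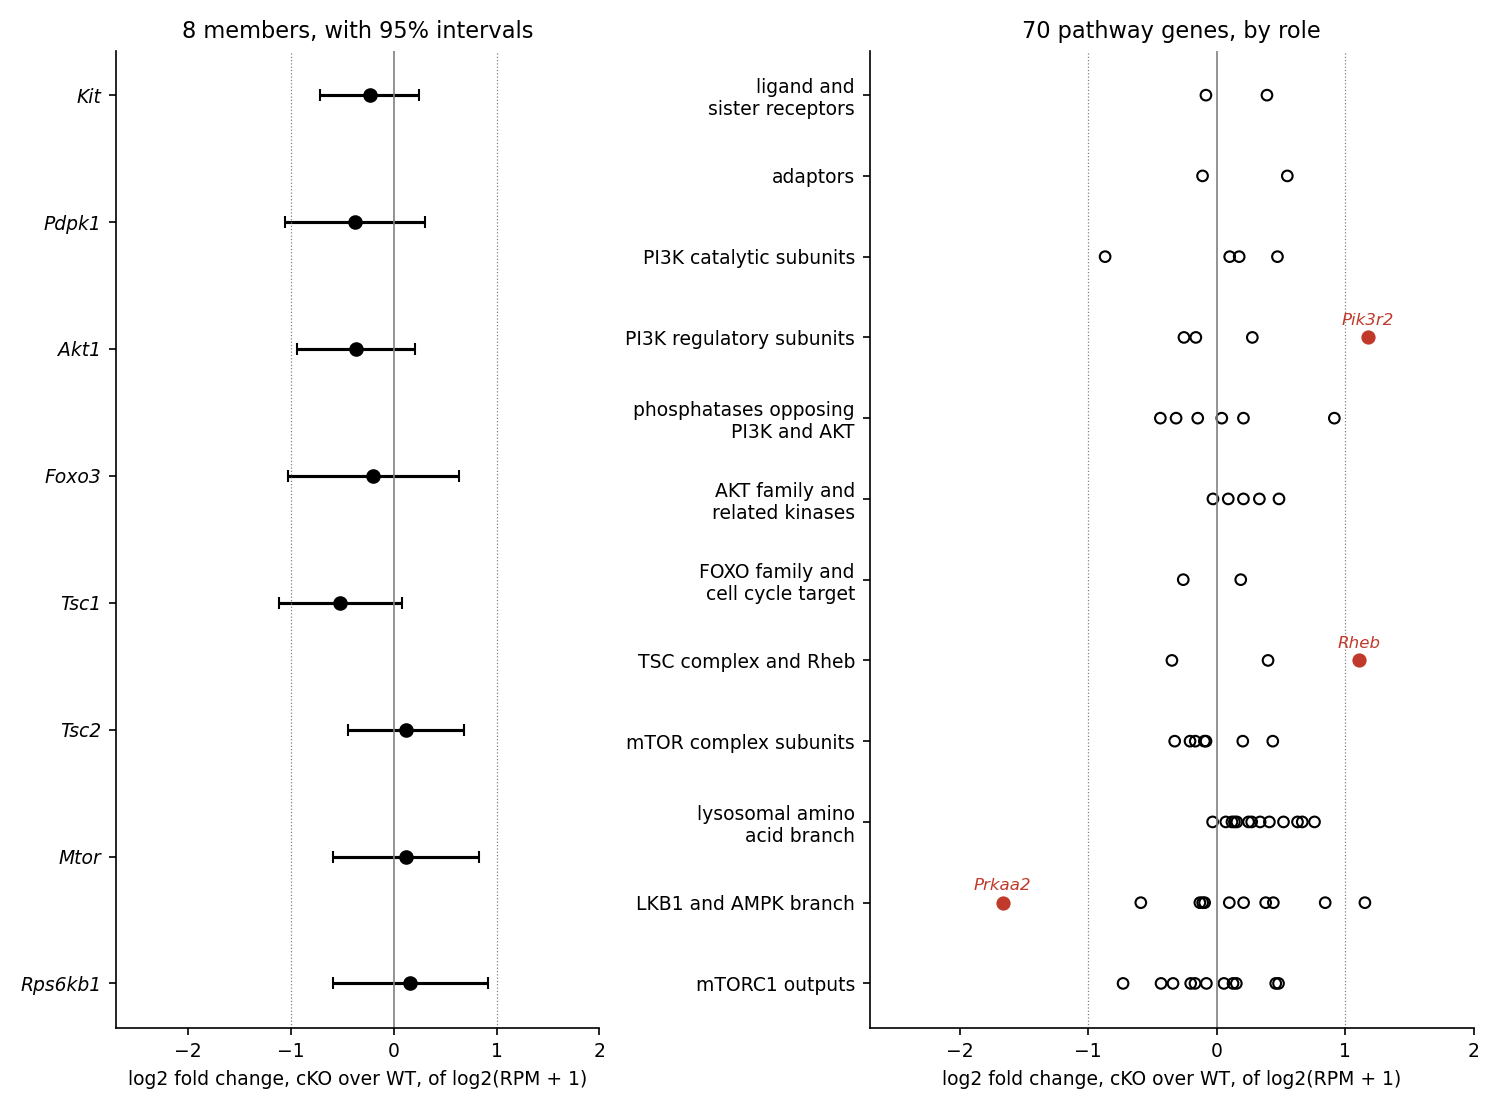
Log2 fold change of log2(RPM + 1), Setd1b cKO over Setd1b WT: left, the 8 genes with 95% intervals, and right, 70 tested pathway genes by role, filled red where the adjusted p was under 0.05 and the change over 2-fold. Dotted lines mark 2-fold. All 8 intervals on the left include 0, and on the right the called genes Pik3r2 and Rheb lie to the right of the band, as does Ddit4l, which was not called, and Prkaa2 lies to the left.

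Rheb (chr5:24802823-24842851, minus strand), the GTPase between the TSC complex and mTOR, had 85.1, 134, 130 and 136 RPM in Setd1b cKO and 39.0, 61.7 and 68.5 RPM in Setd1b WT. Every Setd1b cKO oocyte lay above every Setd1b WT oocyte. Setd1b cKO replicate 4 and Setd1b WT replicate 3, which were low for the members, had the highest Rheb value of their genotype. Rheb rose from 56.4 ± 15.4 RPM (SD, n = 3) to 121 ± 24.3 RPM (SD, n = 4), and its log2 fold change was 1.11 (SE 0.26, 95% interval 0.53 to 1.69, adjusted p = 0.0344, limma). No listed transcript overlaps it, and its CG-rich RefSeq window, which does not reach the 5′ end of the deposited transcript, is printed above. The call was lost in 8 of 22 alternatives: under centring on the median transcript (log2 fold change 0.95, adjusted p = 0.0604), without a filter (0.0584), in eBayes without trend (0.0520), in voom with median-of-ratios library sizes (0.0676), and without Setd1b cKO replicate 2 (0.0746), Setd1b cKO replicate 3 (0.0983), Setd1b WT replicate 1 (0.147) or Setd1b WT replicate 2 (0.101, all adjusted p, limma).

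The other genes of that step did not pass the test. Tbc1d7, the third subunit of the TSC complex, had 34.3, 26.4, 31.5 and 36.0 RPM in Setd1b cKO and 37.1, 43.5 and 42.1 RPM in Setd1b WT (log2 fold change -0.35, adjusted p = 0.379, limma). The genotypes did not overlap for Tbc1d7, but the difference did not pass the test. The row assigned to Rhebl1, a relative of Rheb, covers little of that gene, so its identity is uncertain and no value is given.

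Pik3r2 (chr8:70768174-70777359, minus strand), the p85 beta subunit of PI3K, had 7.42, 7.33, 8.45 and 8.04 RPM in Setd1b cKO and 2.59, 2.47 and 3.74 RPM in Setd1b WT. The 4 Setd1b cKO values lay close together and well above the 3 others. Pik3r2 rose from 2.93 ± 0.703 RPM (SD, n = 3) to 7.81 ± 0.528 RPM (SD, n = 4), with 1.18 as its log2 fold change (SE 0.26, adjusted p = 0.0245, limma), and the call was lost in 8 of 22 alternatives. These were the fits without a filter (adjusted p = 0.0569), with quantile normalisation (0.0566), with a pseudocount of 5 RPM (log2 fold change 0.69, under 2-fold), and without Setd1b cKO replicate 1 (0.0573), 2 (0.0501) or 3 (0.0706) or Setd1b WT replicate 1 (0.103) or 2 (0.109, limma). It was found by position, and a transcript on the opposite strand that overlaps it over 965 bases lay higher in Setd1b cKO without passing the test, at 10.7 ± 2.11 RPM (SD, n = 4) against 4.59 ± 1.78 RPM (SD, n = 3, log2 fold change 1.10, adjusted p = 0.0525, limma), so which of the 2 the shared reads came from cannot be told apart.

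The other tested PI3K subunits did not pass the test. Pik3cd, a catalytic subunit, had 97.9 to 123 RPM in Setd1b cKO and 94.4 to 105 RPM in Setd1b WT (log2 fold change 0.10, adjusted p = 0.819, limma). Pik3ca, another catalytic subunit, had 33.0, 45.7, 44.9 and 43.1 RPM against 28.2, 27.98 and 32.6 RPM, without overlap (log2 fold change 0.47, adjusted p = 0.228, limma). Pik3cb, the third, lay without overlap on the other side, with 8.51, 4.86, 5.14 and 6.06 RPM against 9.64, 14.5 and 11.7 RPM (log2 fold change -0.87, adjusted p = 0.0961, limma), and was picked out after its values were seen. Among the regulatory subunits, Pik3r1 had a log2 fold change of -0.16 (adjusted p = 0.786) and Pik3r4 one of -0.25 (adjusted p = 0.540, limma).

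Upstream of PI3K, Kitl, the ligand made by granulosa cells, was at 3.15 to 8.33 RPM in the 7 oocyte libraries (log2 fold change -0.08, adjusted p = 0.923, limma). Igf1r, a receptor that also feeds PI3K, had a log2 fold change of 0.39 (adjusted p = 0.501), and the adaptors Grb2 and Gab2 had 0.55 (adjusted p = 0.258) and -0.11 (adjusted p = 0.880, limma). Inpp4a, a lipid phosphatase, ranged from 13.0 to 77.4 RPM within Setd1b cKO alone (log2 fold change 0.04, adjusted p = 0.980, limma).

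Gsk3b, a kinase that AKT turns off, had a log2 fold change of 0.49 (adjusted p = 0.628, limma). Foxo1, the other abundant FOXO factor, had 61.5, 91.2, 87.9 and 63.4 RPM in Setd1b cKO and 93.9, 83.3 and 92.3 RPM in Setd1b WT (log2 fold change -0.26, adjusted p = 0.555, limma). Setd1b WT replicate 3 was not low for Foxo1, unlike for Foxo3. Cdkn1b, the cell cycle inhibitor p27 that FOXO factors induce, had a log2 fold change of 0.19 (adjusted p = 0.794, limma).

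Of the 7 tested subunits of the mTOR complexes 0 passed the test (limma, with 0 at an unadjusted p under 0.05 and 0 by voom), against 5.71% of all tested transcripts called and 21.7% at that unadjusted p. Mapkap1, which belongs to complex 2, had 82.7, 98.5, 82.8 and 78.5 RPM in Setd1b cKO and 99.2, 94.0 and 94.5 RPM in Setd1b WT (log2 fold change -0.17, adjusted p = 0.682, limma), and Deptor, an inhibitor of both complexes, had a log2 fold change of -0.10 (adjusted p = 0.867). In the lysosomal branch, which reports amino acids to mTOR complex 1, 12 of 13 tested genes had a log2 fold change above 0, against 60.3% of all tested transcripts, with a median of 0.27 against 0.12 for all, and 0 of 13 passed the test (limma, with 2 at an unadjusted p under 0.05 and 0 by voom), against the same 5.71% and 21.7%. That median was 0.11 without Setd1b cKO replicate 4, against 0.14 for all transcripts, 0.15 without Setd1b WT replicate 1 and 0.47 without Setd1b cKO replicate 2, and centring on the median transcript gave 0.12 with 9 of 13 above 0. Lamtor3 was clear of overlap, with 294, 301, 331 and 302 RPM against 191, 190 and 213 RPM (log2 fold change 0.63, adjusted p = 0.0743, limma). Lamtor5, whose values are given above, had a log2 fold change of 0.34 (adjusted p = 0.658).

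Prkaa2 (chr4:105016801-105109890, minus strand), the alpha 2 catalytic subunit of AMPK, which restrains mTOR complex 1 when energy is low, had 10.4, 16.4, 24.1 and 8.39 RPM in Setd1b cKO and 57.3, 64.1 and 25.6 RPM in Setd1b WT. The groups did not overlap, though the highest Setd1b cKO oocyte and the lowest Setd1b WT oocyte were close. Prkaa2 fell from 49.0 ± 20.5 RPM (SD, n = 3) to 14.8 ± 7.07 RPM (SD, n = 4), with -1.66 as its log2 fold change (SE 0.40, 95% interval -2.55 to -0.78, adjusted p = 0.0360, limma), the largest change of the list. Setd1b WT replicate 3 was again the low oocyte of its genotype, and without it and Setd1b cKO replicate 4 the log2 fold change was -1.85 (adjusted p = 0.00136, limma). The call was lost in 5 of 22 alternatives, namely without a filter (adjusted p = 0.0672) and without Setd1b cKO replicate 1 (0.0937), Setd1b cKO replicate 2 (0.0541), Setd1b WT replicate 1 (0.140) or Setd1b WT replicate 2 (0.167, limma). Prkaa2 was found by position, and an opposite-strand neighbour overlaps it over only 63 bases.

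**Figure D4:**
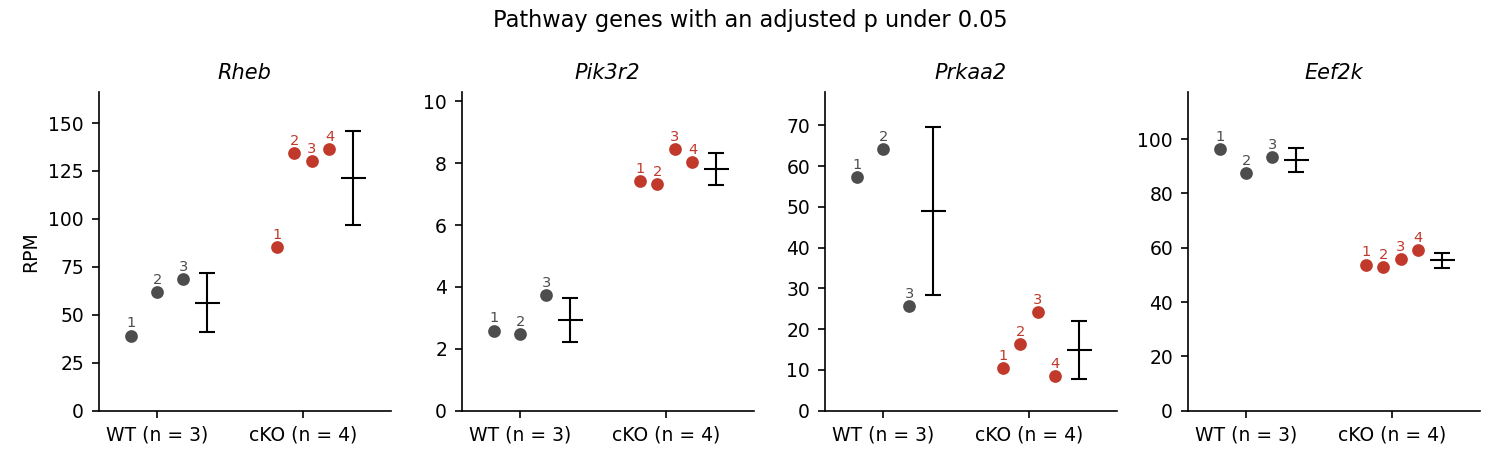
RPM (linear axes from 0) of Rheb, Pik3r2, Prkaa2 and Eef2k in each oocyte, Setd1b WT (n = 3, grey) and Setd1b cKO (n = 4, red), with replicate numbers and the mean ± SD beside each group. The genotypes do not overlap in any of the 4 panels, and the change in Eef2k is under 2-fold.

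The sister subunit Prkaa1, did not pass the test, with 190, 185, 188 and 99.7 RPM in Setd1b cKO and 173, 159 and 122 RPM in Setd1b WT (log2 fold change 0.10, adjusted p = 0.883, limma). The difference between the 2 subunits was not tested. The row assigned to Strada, a partner of the AMPK-activating kinase LKB1, covers little of that gene, so it may be another transcript. That row had 93.7 to 117 RPM in Setd1b cKO and 149 to 162 RPM in Setd1b WT (log2 fold change -0.59, adjusted p = 0.1004, limma).

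Downstream of mTOR complex 1, 0 of 11 tested outputs passed both criteria (limma, with 1 at an unadjusted p under 0.05 and 0 by voom), against 5.71% and 21.7% of all. Eef2k, the kinase that slows translation elongation and that S6 kinase inhibits, had 53.7, 52.8, 55.7 and 59.2 RPM in Setd1b cKO and 96.2, 87.4 and 93.4 RPM in Setd1b WT, with the values of each genotype close together. Its log2 fold change of -0.73 (SE 0.19, adjusted p = 0.0446, limma) passed on p, as did 6.15% of all tested transcripts, and stayed under 2-fold. Without Setd1b WT replicate 1 its adjusted p was 0.162. Eif4e, the cap-binding translation factor, had 416, 505, 441 and 251 RPM against 422, 426 and 294 RPM (log2 fold change 0.06, adjusted p = 0.937, limma), and Rps6, the ribosomal protein that the S6 kinase phosphorylates, had a log2 fold change of -0.34 (adjusted p = 0.457). For Eif4e the low oocytes were again Setd1b cKO replicate 4 and Setd1b WT replicate 3.

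The rows of the 16 matched genes that were not tested reached at most 1.83 RPM in any oocyte, among them the insulin receptor Insr and the adaptors Irs1, Irs2 and Gab1, and differences there were not detectable at this depth. The row assigned to Lamtor1, also among them, overlaps that gene by only 0.0796 of the union of the spans. It therefore need not give the level of Lamtor1. Irs4, Pik3cg and Eif4ebp3 had no transcript in the table.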

How the data were processed

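Libraries were made from single GV oocytes with the SMARTer kit, which does not mark strand. The authors used trim galore for trimming and Hisat for mapping to GRCm38 with known splice sites, dropped alignments of low mapping quality, and quantified oocyte transcripts with merged isoforms in SeqMonk. The submitters' processing notes also name bcl2fastq 1.8.4 and featureCounts 1.4.4. Whether counting used strand is not given in the sources used here. The deposited values are log2 RPM, with 0.9 read in place of 0, and every value gave whole reads within 0.0001. No columns were left unused. No negative binomial test was run here, and voom on the recovered reads served as an alternative.

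From the deposited log2 values RPM was recovered. limma 3.58.1 (R 4.3.3, eBayes with trend) was fitted to log2(RPM + 1) in all 7 libraries, on the 18179 transcripts that reached 1 RPM in 3 or more libraries. Benjamini-Hochberg adjustment ran over all of them. Calls needed an adjusted p under 0.05 and over 2-fold. The fit was tested on simulated data. A gene took the transcript that the table assigns to it on its own strand, or else one overlapping its GENCODE M21 span by at least 0.5 of the union. This found 2 members and 15 genes of the pathway list. The table's gene lies on the opposite strand for 30.0% of 23939 named transcripts.

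The members and lists were chosen with earlier results of these data known. Genes named from the list were the 2 per role with the highest mean RPM and any with an adjusted p under 0.05, with others said to be picked later or named for the low libraries. For 2 genes that this rule names, values are not reported here. Alternatives covered the pseudocount, filter, scaling, moderation, voom, library weights, the replicate block and leaving out libraries.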

Additional observations from a re-analysis of the deposited data

Results flagged for a closer look

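In 3 of 35 genes examined, 1 of the 4 Setd1b cKO oocytes stood apart, with a gap to its nearest neighbour large enough, as a share of the group's whole range, to pass Dixon's test at its critical value for 4 samples, which chance gives in about 1 in 20 groups. Akt1 had 7.69 RPM in Setd1b cKO replicate 4 against 12.1 to 12.7 RPM in the other 3 (gap 0.887 of the range). Prkaa1 had 99.7 RPM in the same oocyte against 185 to 190 RPM (gap 0.943 of the range). Rheb had 85.1 RPM in Setd1b cKO replicate 1 against 130 to 136 RPM (gap 0.880 of the range), and that oocyte still lay above all 3 Setd1b WT oocytes. Setd1b WT, with 3 oocytes, was not examined this way.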

How the results depend on the processing

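Under 22 alternatives no member passed the threshold, and of 182 alternative values for the 8 members 38 were identical to the value reported by construction, 132 others kept their direction and 12 reversed. The cause was not tested for any of them. The log2 fold change of Foxo3 was 0.065 with a replicate block and -0.55 to 0.065 when 1 oocyte was left out. Centring on the median transcript gave -0.039 for Tsc2 and -0.038 for Mtor, and quantile normalisation gave -0.067 and -0.0099. Leaving out 1 oocyte gave -0.0092 to 0.19 for Tsc2, -0.080 to 0.34 for Mtor and -0.13 to 0.40 for Rps6kb1, and with no change of sign -0.40 to -0.14 for Kit, -0.55 to -0.12 for Pdpk1, -0.47 to -0.21 for Akt1 and -0.63 to -0.39 for Tsc1. The count of 1038 transcripts past the threshold (683 higher, 355 lower) was 553 with a pseudocount of 5 RPM, 649 without a filter, 1751 with library quality weights 1527 without Setd1b cKO replicate 4 and Setd1b WT replicate 3 together, and 280 to 1287 when 1 oocyte was left out. Centring gave 458 higher and 531 lower, quantile normalisation 428 and 442, and voom with median-of-ratios library sizes 327 and 415. The pathway count of 3 was 0 without a filter, 1 when named by the table alone and 0 to 4 when 1 oocyte was left out, and it was 0 without Setd1b cKO replicate 2, Setd1b WT replicate 1 or Setd1b WT replicate 2. The labels share replicate numbers but do not say whether these pair the oocytes. Same-numbered oocytes correlated at 0.192, 0.294 and -0.13 in their deviations. Deviations from the mean of only 3 Setd1b WT oocytes are tied to each other, so these values cannot decide whether the numbers pair them. The replicate block, to which the unpaired Setd1b cKO replicate 4 adds nothing, gave 1403 transcripts and 4 pathway genes. At 52 to 101 reads counting error limits Tsc2 most among the members.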

Other observations

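Ddit4l, an inhibitor of mTOR complex 1, had 2.77, 2.80, 6.27 and 0 RPM in Setd1b cKO and 0.648, 0.308 and 0.374 RPM in Setd1b WT. Setd1b cKO replicate 4 had no read and the other 3 lay above all Setd1b WT oocytes. It passed the filter only through those 3 oocytes, so a difference was built into its being tested (log2 fold change 1.15, SE 0.55, adjusted p = 0.257, limma). It was called in 4 of the 18 alternatives that tested it, with library quality weights (adjusted p = 0.0306), with the replicate block (0.0173), without Setd1b cKO replicate 4 (log2 fold change 1.71, adjusted p = 0.0121) and without that oocyte and Setd1b WT replicate 3 (0.0128, limma). It was picked out after its values were seen. Sesn3, of the stress-induced sestrin family, had 13.2, 13.3, 14.7 and 20.3 RPM against 8.42, 9.94 and 9.17 RPM, without overlap (log2 fold change 0.67, adjusted p = 0.142, limma), and was picked out in the same way.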
